A study of Mus musculus with 8 samples.

Results

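The comparison described here sets mesenchymal cells of the mouse large intestine given 1 mM GABA with 20 mM taurine for 6 h against the same kind of cells at 0 h. It covers the 10910 of 24346 listed gene symbols whose mean over the 6 libraries was at least 1 FPKM (sequenced fragments per length of transcript and per mapped fragment of the library). Each time point had 3 RNA sequencing libraries, of 8 in the whole series, and the other 2 were not used here. All 6 libraries came from C57BL/6 mice, with no genotype named beyond the strain and no age given. The sorting gate took cells that lacked CD45, EpCAM, CD31 and Ly6C, carried gp38 and had high PDGFRα. No library is an untreated 6 h control, so an effect of the treatment and an effect of elapsed time cannot be told apart. The sources used here do not say whether the cells were cultured or whether the replicates of a group were separate animals or cultures. A p-value here weighs a difference against library-to-library spread alone, and that spread may be technical. The test takes this spread partly from the gene itself and partly from other genes of similar level.

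Fibroblast-like cells of this kind line the gut epithelium and supply it with growth factors, BMP and Wnt ligands, chemokines and matrix. GABA acts through ion channel and G protein-coupled receptors, and taurine is a sulfur-containing amino acid that many cells take up and use to balance their volume. Type I interferon signalling, which runs through a receptor, JAK kinases and transcription factors that include STAT2 and IRF9, switches on a large set of antiviral genes through a short promoter element. NRF2 is a transcription factor that raises genes for glutathione, thioredoxin, iron storage and heme breakdown under oxidative stress.

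Total FPKM per library lay between 550914 and 579004, and 14818 to 14974 symbols per library were above 0. Read numbers are unknown, and no counting interval can be given. Pdgfra (176.8 ± 22.1 FPKM at 0 h and 217.9 ± 9.89 FPKM at 6 h, SD, n = 3, adjusted p = 0.15) and Pdpn, which encodes gp38 (289.5 and 293.1 FPKM), were abundant. Foxl1, a transcription factor of subepithelial mesenchyme, lay between 0.109 and 0.289 FPKM in all 6 libraries. The series names its mesenchymal cells by high Foxl1, and the Foxl1 values go against that name, so the cells are called here by their gate. Other listed markers of Foxl1-positive mesenchyme were mixed, with F3 at 393.0 to 523.4 FPKM and Bmp3 at most 0.403 FPKM. Those listed for PDGFRA-low fibroblasts were mixed too, with Cd81 at 213.1 to 241.6 FPKM and Dpp4 at most 0.105 FPKM. Epcam reached at most 0.48 FPKM, Ptprc, which encodes CD45, at most 0.216 FPKM and Pecam1, which encodes CD31, at most 0.165 FPKM. Ly6c1 stood at 9.59 FPKM at 0 h and 12.2 FPKM at 6 h. Markers of smooth muscle and pericytes summed to 983 to 1016 FPKM at 0 h and 973 to 1071 FPKM at 6 h, most of it Acta2 and Tagln. Within that list Actg2 reached 47.4 FPKM, whereas Myh11, Rgs5 and Notch3 reached at most 1.18, 0.256 and 0.233 FPKM. Acta2 is also a listed marker of Foxl1-positive mesenchyme, so the sum does not single out smooth muscle or pericytes.

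After 6 h, 26 genes were higher (0.238% of those tested) and 34 were lower (0.312%), by limma's moderated test on log2(FPKM + 1) with a Benjamini-Hochberg adjusted p under 0.05. The rises included genes of the interferon response, among them Zbp1, Ifi27l2a, Irf7, Usp18 and Isg15, together with Chac1, Hgf, Ccl11, Mmp3 and Penk. The falls held Hmox1, Gclm and Mt1, which serve stress defence, and Ybx3, Smad4, Akt1, Gna12, Ryk and Axin1, most of which act in signalling. Most differences were small. The median log2 difference over all genes tested was -0.002, and the 5th and 95th percentiles were -0.25 and 0.28. The called rises had a median log2 difference of 0.60 (range 0.34 to 1.15) and the called falls of -0.70 (range -2.22 to -0.23). The outer ends of these ranges were Krt8 and the pseudogene Apoo-ps, which passed the filter on level only through the time point where they were high. In all 60 called genes (0.55%) the 3 values of 1 time point lay wholly beyond the 3 of the other. That pattern was far more common than a call, with 791 genes (7.25%) wholly higher and 874 (8.01%) wholly lower at 6 h. Its split moved with the scaling: with every library scaled to a common total, 973 genes lay wholly higher and 704 wholly lower, of 11729 then tested, and 601 higher and 426 lower genes had an unadjusted p under 0.05, against 485 and 538 as deposited. Leaving out 1 library at a time gave 0 to 47 higher and 2 to 68 lower genes. Both maxima came without replicate 3 of 0 h. Without either of the other 0 h libraries or without replicate 1 or 2 of 6 h, each direction had at most 3 calls, and without replicate 3 of 6 h there were 5 and 36.

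**Figure D1:**
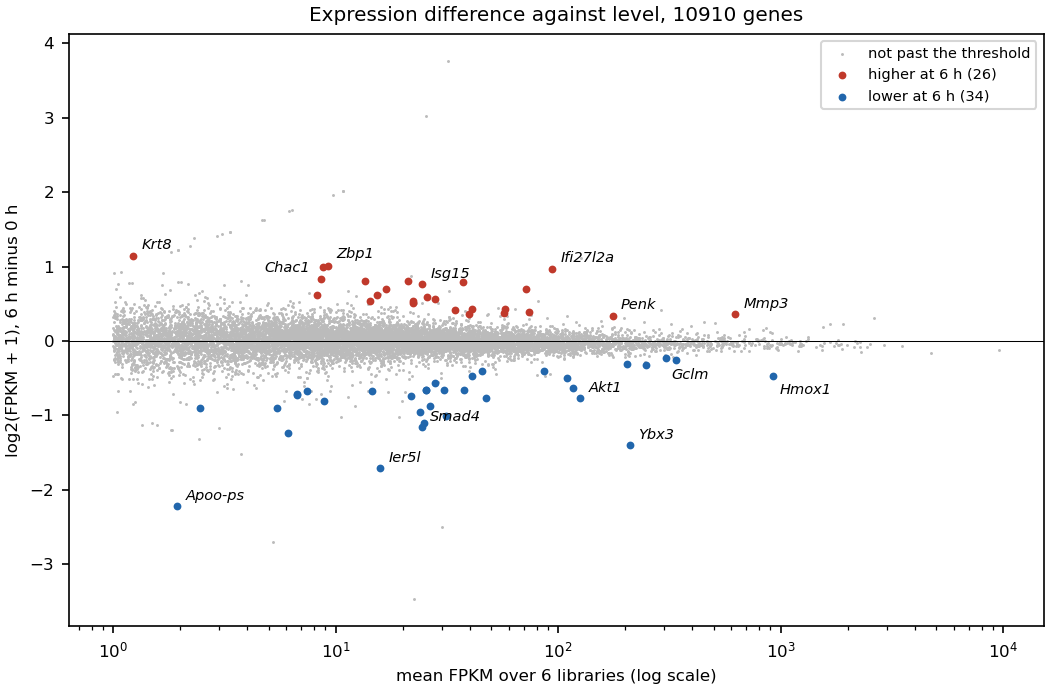
Difference between 6 h and 0 h on the log2(FPKM + 1) scale (vertical) against the mean FPKM over 6 libraries (horizontal, log scale) for the 10910 genes tested. Red points are the 26 genes higher and blue points the 34 genes lower at 6 h past the threshold. Most called differences lie between 0.23 and 1.40 in size, and grey points did not pass.

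The level of a gene set how small a difference could pass. Among 4601 genes with a mean of 1 to 10 FPKM, 5 were higher and 8 lower, the median SD within groups was 0.18 on the log2 scale and the smallest difference past the threshold was 0.62. Between 10 and 100 FPKM, 19 of 5212 genes were higher and 17 lower, with a median SD of 0.10. From 100 FPKM upwards, 2 of 1097 genes were higher and 9 lower, with a median SD of 0.07 and a smallest called difference of 0.23. In that top class 177 of the 1097 genes lay wholly lower and 63 wholly higher at 6 h, beside 8.01% and 7.25% of all genes tested. Just inside the threshold of 0.05 were Gclm (adjusted p = 0.0478), Marveld1 (0.0431) and Lrp3 (0.0429), and just outside it Gatad2a (0.0515), Dnajc21 (0.0524), Wtip and Ptgs1 (both 0.0529). At the filter on level, Mertk and Anpep lay just inside and Dusp18 and Plk1 just outside, all with a mean that rounds to 1.00 FPKM.

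Members of a list of interferon-stimulated genes made up 11 of the 26 rises. Of 46 listed interferon-stimulated genes, 44 were tested, 40 of them were higher (49.5% of all genes tested were), 11 passed as higher (0.238% of all genes did) and 0 as lower, and 28 lay wholly above their 0 h values (7.25% of all genes did). The median log2 difference of the 44 was 0.42, against -0.002 over all genes. The list was drawn up with earlier results of these libraries known, so its direction is no independent evidence. The summed level of its members was 3122 to 3456 FPKM in the 0 h libraries and 3835 to 4473 FPKM at 6 h. Across libraries the median deviation of the members from their own means was -0.31, -0.29 and -0.06 at 0 h and 0.13, 0.23 and 0.29 at 6 h, so replicate 3 of 0 h lay closest to the 6 h libraries. The number of members past the threshold was 17 without that library and 0 to 2 without any 1 of the other 5.

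Sequences before the start sites of called interferon genes were searched for the interferon-stimulated response element, spelled GAAA, any 2 bases and GAAA again, on both strands, because it is the element through which STAT2 and IRF9 are known to act. Of 8 called genes of the list with a RefSeq promoter, Isg15, Ifit3 and Stat2 held it in the 250 bases before the start. It was present in 978 of 32851 such windows in RefSeq (2.98%), in 270 of 8768 tested genes (3.08%), in 8 of 32 genes of the list (25%), in 4 of 19 called rises (21.1%, with Apol9a the fourth) and in 0 of 25 called falls. The stretches around the matches, 5′ to 3′ along the gene's own strand with the matches in capitals (runs that start with TTTC are matches on the other strand), read as follows in GRCm38.p6, for Isg15 at chr4:156200845-156200926 (minus strand), Ifit3 at chr19:34583343-34583446 (plus strand) and Stat2 at chr10:128270248-128270315 (plus strand).
Isg15: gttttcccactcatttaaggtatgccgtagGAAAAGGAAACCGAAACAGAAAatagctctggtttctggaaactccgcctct
Ifit3: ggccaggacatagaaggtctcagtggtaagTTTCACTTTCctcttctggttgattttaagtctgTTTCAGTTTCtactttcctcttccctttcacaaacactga
Stat2: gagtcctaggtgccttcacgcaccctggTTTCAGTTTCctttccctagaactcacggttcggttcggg

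Isg15 holds 3 matches that overlap each other, between 78 and 66 bases before its start, Ifit3 holds 2 separate ones at 156 and 122 bases and Stat2 holds 1 at 222 bases. A match describes the letters and is not a measured binding site. Isg15, a ubiquitin-like protein that is attached to other proteins, read 14.7, 17.4 and 21.6 FPKM at 0 h and 26.2, 30.3 and 36.4 FPKM at 6 h. The 3 values at 6 h all lay above those at 0 h (log2 difference 0.76, SE 0.14, adjusted p = 0.0319). Ifit3, an antiviral protein that binds other members of its family, read 18, 20.5 and 22.7 FPKM and then 31.9, 29.2 and 32.2 FPKM, a 1.53-fold rise (adjusted p = 0.0275). Its neighbour Ifit3b, a near-identical copy picked after its values were known, went from 6.55 to 9.17 FPKM (adjusted p = 0.175), and how reads were split between the copies is not given.

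Among the transcription factors of the response, Stat2 read 10.4, 13.0 and 14.5 FPKM at 0 h and 19.4, 21.3 and 22.0 FPKM at 6 h (log2 difference 0.69, SE 0.12, adjusted p = 0.0288). Irf7, which amplifies interferon production, read 13.1, 13.0 and 19.6 FPKM and then 22.1, 30.4 and 28.8 FPKM (1.78-fold, adjusted p = 0.0408). For both genes the highest 0 h value was that of replicate 3, and it stayed below every 6 h value. Irf9 (0.35, adjusted p = 0.23) and Irf1 (0.07, adjusted p = 0.837) had positive log2 differences that did not pass. Of 9 tested receptor and kinase genes upstream, 0 passed in limma and 0 had an unadjusted p under 0.05, 2 lay wholly higher (7.25% of all genes did) and the median was 0.07, with Tyk2 at 4.86 and 5.95 FPKM (adjusted p = 0.587). Of 13 sensors and adaptors of foreign nucleic acids, 0 passed in limma and 1 had an unadjusted p under 0.05. Ddx58, which encodes the RNA sensor RIG-I, read 7.14, 7.67 and 12.8 FPKM and then 10.7, 15.8 and 13.2 FPKM, so its groups overlapped.

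Among the effector genes of the response, Zbp1, a sensor of Z-form nucleic acids that can trigger cell death, read 4.71, 5.30 and 7.47 FPKM at 0 h and 10.004, 13.3 and 14.7 FPKM at 6 h (2.17-fold, log2 difference 1.00, SE 0.17, adjusted p = 0.0288). Usp18, which removes Isg15 from proteins and dampens the interferon receptor, read 22.6, 24.7 and 34.9 FPKM and then 42.7, 47.9 and 51.9 FPKM (1.73-fold, adjusted p = 0.0288). Ifi27l2a, an interferon-induced membrane protein gene, read 72.3, 54.1 and 61.5 FPKM and then 93.7, 137 and 145.3 FPKM (adjusted p = 0.0254). In all 3 genes replicate 1 was the lowest at 6 h, and it still lay above every 0 h value. Oasl2, a relative of the oligoadenylate synthetases, read 8.69, 8.37 and 11.9 FPKM and then 15, 19.9 and 17.9 FPKM (adjusted p = 0.0294). Sp100, a component of nuclear bodies, read 4.67, 6.36 and 6.61 FPKM and then 9.0, 11.3 and 13.5 FPKM (adjusted p = 0.0408). In both, the groups stood apart without overlap. Lgals3bp, a secreted glycoprotein, went from 54.5 ± 7.45 to 88.8 ± 13.6 FPKM, and Xaf1, a promoter of apoptosis, from 11.5 ± 0.552 to 17.2 ± 1.09 FPKM (SD, n = 3; adjusted p = 0.0288 and 0.0319).

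Outside the list, Apol9a, an apolipoprotein L gene, read 12.1, 9.99 and 13.9 FPKM and then 19.1, 18.9 and 18.3 FPKM (1.56-fold, adjusted p = 0.0355). Its close copy Apol9b stood at 11.4 and 16.5 FPKM (adjusted p = 0.125), and the division of reads between them is uncertain. Ch25h, which makes an oxysterol with antiviral activity from cholesterol, read 23.8, 22.2 and 20.8 FPKM and then 32.8, 36.6 and 30.7 FPKM (1.5-fold, adjusted p = 0.0275). Several further members of the list came close to the threshold without passing. Ifitm3, a membrane protein that blocks virus entry and 1 of the 10 most abundant genes, read 2467, 2173 and 2389 FPKM and then 2631, 3046 and 3021 FPKM (adjusted p = 0.0705). Rtp4 (log2 difference 0.67, adjusted p = 0.0686), Eif2ak2 (0.76, adjusted p = 0.0686), Bst2 (0.54, adjusted p = 0.0841) and Ifi35 (0.40, adjusted p = 0.0877) also lay wholly above 0 h. The 4 members with lower values were Rsad2 (-0.27), Mx1 (-0.21), Uba7 (-0.13) and Ifit2 (-0.01), each with overlapping groups. Of 13 MHC class I genes, 0 passed in limma (5 at an unadjusted p under 0.05, as had 1023 of the 10910 genes), 3 lay wholly higher (7.25% of all genes did) and the median was 0.06, with H2-T23 at 9.63 and 13.8 FPKM (adjusted p = 0.138) and B2m at 804.3 and 910.9 FPKM (adjusted p = 0.366). Leukocyte markers summed to 7.25 to 22.3 FPKM at 0 h and 12.8 to 19.1 FPKM at 6 h over 18 genes, 4 of them tested and 0 passing in limma (2 unadjusted), and their part in the interferon result was not tested.

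**Figure D2:**
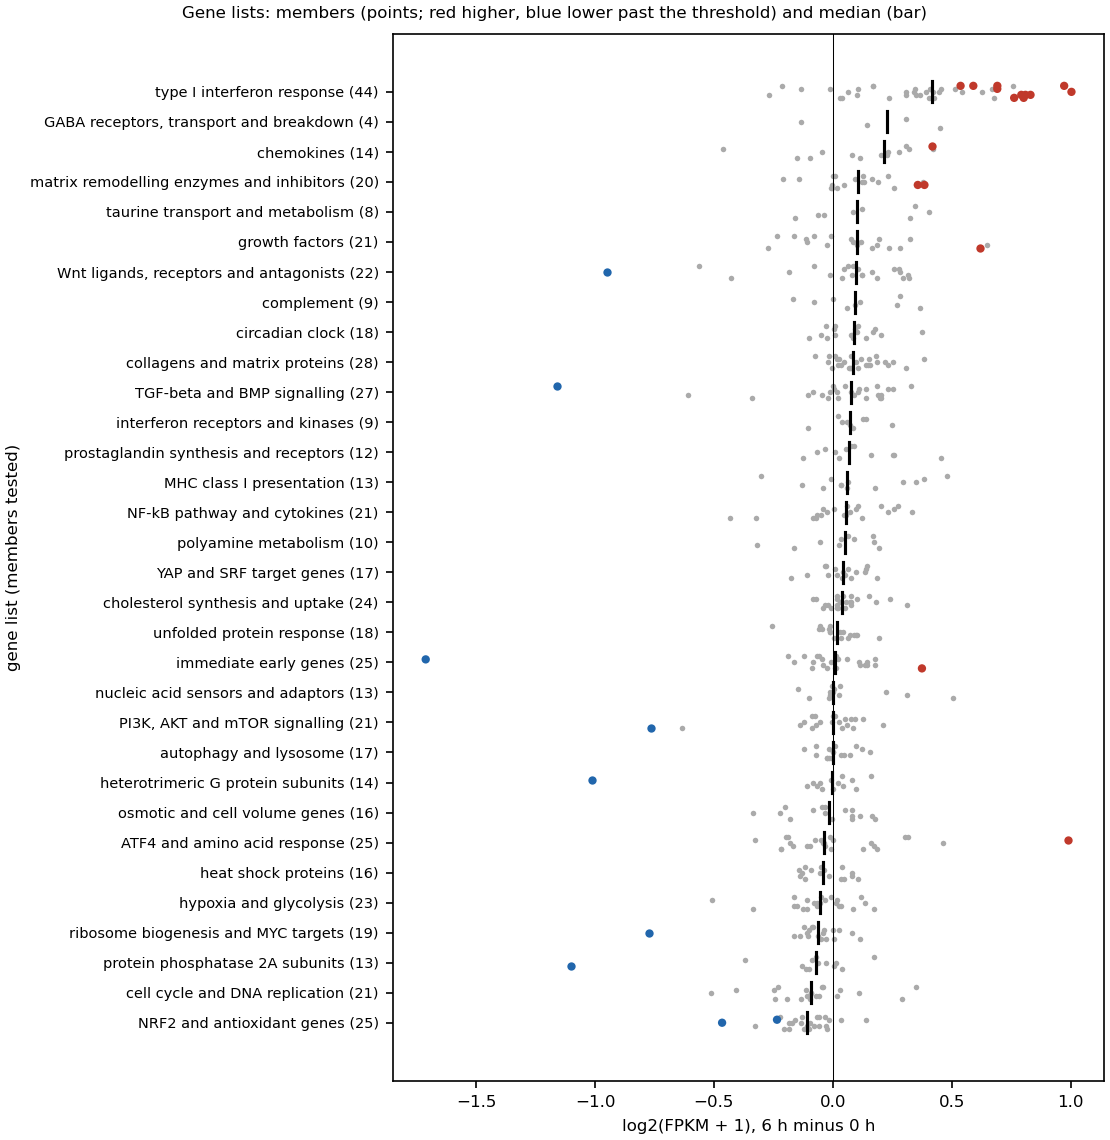
Log2 difference between 6 h and 0 h on the log2(FPKM + 1) scale (horizontal) for every tested member of 32 pathway lists, ordered by list median (black bar), with red and blue points for members higher and lower past the threshold. The interferon list lies furthest to the right with a median of 0.42 and 11 red points, and the NRF2 list furthest to the left with a median of -0.11 and 2 blue points.

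Chac1, an enzyme that degrades glutathione and is known as a target of the amino acid stress factor ATF4, had a rise near that of Zbp1. Its values were 4.06, 6.10 and 6.62 FPKM at 0 h and 10.5, 11.9 and 13.3 FPKM at 6 h (2.13-fold, log2 difference 0.99, SE 0.16, adjusted p = 0.0275). Of 25 tested genes of the ATF4 and amino acid response it was the 1 that passed, while 16 had negative differences and the list median was -0.04. Psat1, of serine synthesis (126 and 108.3 FPKM, adjusted p = 0.181), Asns, which makes asparagine (223 and 194 FPKM, adjusted p = 0.314), and Slc3a2, the heavy chain of amino acid transporters (211.7 and 186.8 FPKM, adjusted p = 0.321), lay lower at 6 h without passing. The Chac1 rise differed in sign from the other 3 members with the smallest p, but it was not the only rise. At an unadjusted p under 0.05, 4 members were higher, Chac1 included, and 6 were lower. Over all 10910 genes those numbers were 485 and 538. The time points lay wholly higher in 4 members and wholly lower in 5, against 7.25% and 8.01% of all genes.

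Genes for handling the 2 added amino acids had no called member. Of 24 listed genes for GABA receptors, transport and breakdown, 4 were tested and 0 passed in limma (2 at an unadjusted p under 0.05), and 7 were listed at 0 in all 6 libraries. In all 4 the time points did not overlap, 3 wholly higher and 1 wholly lower, against 7.25% and 8.01% of all genes. Gabrr2, a subunit of GABA-gated chloride channels, read 2.39, 1.51 and 1.68 FPKM at 0 h and 3.96, 2.47 and 2.39 FPKM at 6 h (adjusted p = 0.493). Gabbr1, a subunit of the metabotropic receptor, read 1.32 and 1.56 FPKM in the mean (adjusted p = 0.853). Aldh9a1, an aldehyde dehydrogenase that can make GABA from its aldehyde, read 6.61, 8.02 and 8.76 FPKM and then 9.47, 11.4 and 8.85 FPKM (adjusted p = 0.486). Abat, which breaks GABA down, was the wholly lower member at 7.55 and 6.81 FPKM (adjusted p = 0.782). For taurine, 8 of 14 listed genes were tested and 0 passed in limma (1 unadjusted). That 1 was Mtus1 (2.25 and 3.27 FPKM, adjusted p = 0.447), a microtubule-associated gene that is not known to handle taurine. Slc6a6, the taurine transporter, read 20.3, 25 and 23.1 FPKM at 0 h and 21.3, 18.6 and 20.9 FPKM at 6 h (adjusted p = 0.657), with overlapping groups. Of 16 osmotic and cell volume genes 0 passed (1 unadjusted), and the median was -0.02. Slc12a2, a sodium, potassium and chloride cotransporter, stood at 6.04 and 4.57 FPKM (adjusted p = 0.419).

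Among the chemokines, Ccl11, the eosinophil-attracting chemokine eotaxin, read 29.0, 28.1 and 31.3 FPKM at 0 h and 40.3, 38.2 and 40.5 FPKM at 6 h (1.35-fold, adjusted p = 0.0319). Of 14 chemokines tested, 1 passed, 8 lay wholly higher (7.25% of all genes did) and the median log2 difference was 0.22. Those 8 included Cxcl10, an interferon-inducible chemokine (75.5, 78.6 and 83.3 FPKM and then 105.5, 93.1 and 96.4 FPKM, adjusted p = 0.0686). The monocyte attractants Ccl2 and Ccl7 were also wholly higher, by log2 differences of 0.23 each (adjusted p = 0.0963 and 0.0722). Cxcl12 read 860.4, 875.1 and 916.1 FPKM at 0 h and 950.8, 945.5 and 969.4 FPKM at 6 h (log2 difference 0.11, adjusted p = 0.459), wholly higher by a margin that did not pass. Its receptors differed in level, with Ackr3 at 32.9 and 33 FPKM (adjusted p = 0.989) and Cxcr4 at most 0.257 FPKM. Of 21 genes of the NF-kB pathway and its cytokines 0 passed in limma (5 at an unadjusted p under 0.05), with Il1rl1, the receptor of interleukin-33, at 220.9 and 264.1 FPKM (adjusted p = 0.0618).

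Hgf, the ligand of the epithelial receptor Met, read 5.94, 5.84 and 7.08 FPKM at 0 h and 11.0, 9.93 and 9.52 FPKM at 6 h (1.62-fold, adjusted p = 0.041), the 1 of 21 growth factors that passed. Btc, an EGF receptor ligand, came next at 5.71 and 9.45 FPKM (adjusted p = 0.0618). Penk, the precursor of the opioid enkephalins, read 164.9, 156.3 and 145.1 FPKM and then 195.8, 198.7 and 195.3 FPKM; its values at 6 h all lay above those at 0 h (1.26-fold, adjusted p = 0.0288). Adcyap1r1, the receptor of the neuropeptide PACAP, went from 49.4 ± 3.25 to 66.6 ± 2.74 FPKM (adjusted p = 0.0288). Ncald, a neuronal calcium sensor, read 17.5, 20.5 and 16.1 FPKM and then 26.8, 24.5 and 28.6 FPKM (adjusted p = 0.0356). Neither gene's groups overlapped.

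Among matrix genes, the stromelysin Mmp3 read 546.1, 526.0 and 573.0 FPKM at 0 h and 690.9, 709.2 and 707.2 FPKM at 6 h (1.28-fold, log2 difference 0.36, SE 0.05, adjusted p = 0.0191). Timp3, an inhibitor of such proteases, rose from 64.2 ± 3.78 to 84.2 ± 5.93 FPKM (adjusted p = 0.0335). These were the 2 of 20 matrix remodelling genes that passed. Of 28 collagens and matrix proteins 24 were higher (49.5% of all genes were), 7 lay wholly higher (7.25% of all genes did) and 0 passed in limma (8 at an unadjusted p under 0.05), with a median of 0.09. Lrrc32, which anchors latent TGF-β at the cell surface, rose from 34.8 ± 0.774 to 45.0 ± 2.30 FPKM (adjusted p = 0.0408). Nr4a1, an immediate early nuclear receptor, read 52.0, 49.3 and 46.9 FPKM and then 60.9, 62.8 and 69.5 FPKM (1.3-fold, adjusted p = 0.0408). H1f0, a linker histone, rose from 34.7 ± 1.90 to 47.0 ± 2.17 FPKM and Tcp11l2 from 18.3 ± 0.50 to 26.5 ± 2.16 FPKM (both adjusted p = 0.0288).

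Krt8, an intermediate filament protein of simple epithelia, had the highest log2 difference of the called rises at the lowest level. It read 0.271, 0.729 and 0.188 FPKM at 0 h and 2.12, 1.75 and 2.31 FPKM at 6 h (log2 difference 1.15, SE 0.20, adjusted p = 0.0319). It passed the filter on level only through its 6 h values. Of 19 epithelial markers it was the 1 tested, and their summed level was 2.21 to 3.67 FPKM at 0 h and 4.83 to 6.65 FPKM at 6 h, with Fabp2, Olfm4 and Chga at 0 throughout. Krt8 is itself part of that sum, and the other members did not all move alike. Epcam and Krt18, the partner of Krt8, lay wholly higher at 6 h below the filter on level, and Cldn3 overlapped between the time points. Epcam read 0.130, 0 and 0.135 FPKM and then 0.480, 0.195 and 0.158 FPKM. Cldn3 read 0.319, 0.401 and 0.0949 FPKM and then 0, 0.488 and 0 FPKM. Mesothelial markers, 7 genes that all missed the filter, summed to 1.66 to 1.97 FPKM and 3.01 to 3.90 FPKM. Msln among them, singled out after its values were known, read 0, 0 and 0.0263 FPKM and then 1.02, 0.731 and 0.583 FPKM. The part of such cells in the Krt8 value was not tested. In bulk libraries fewer cells of a type and less RNA per cell cannot be told apart.

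**Figure D3:**
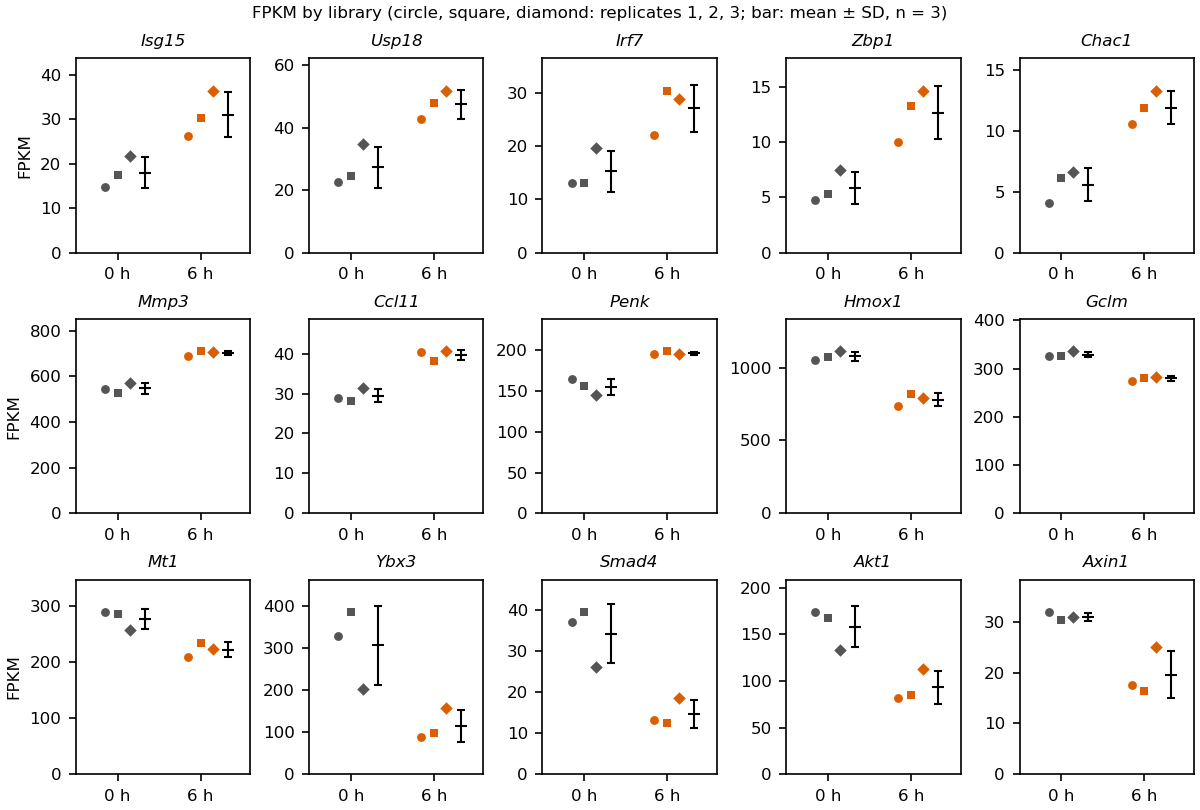
FPKM (vertical, from 0) in each library for 15 genes past the threshold, 8 higher and 7 lower at 6 h, with replicates 1, 2 and 3 as circle, square and diamond and the mean ± SD (n = 3) beside them. The 2 time points do not overlap in any panel, and in Ybx3, Smad4 and Akt1 replicate 3 of each time point lies closest to the other.

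Hmox1, which encodes the heme-degrading enzyme heme oxygenase (GRCm38 chromosome 8, 75093621 to 75100589, plus strand), had the smallest adjusted p of the comparison together with the pseudogene Apoo-ps, which passed the filter on level only through its 0 h values. It read 1049, 1070 and 1110 FPKM at 0 h and 733.1, 815.5 and 790.2 FPKM at 6 h (log2 difference -0.47, SE 0.05, adjusted p = 0.00463). Its fall remained past the threshold in 18 of 20 fits, including every fit that left out 1 library, where its adjusted p reached at most 0.0493. Gclm, the modifier subunit of the first enzyme of glutathione synthesis, read 325.6, 325.9 and 335.3 FPKM and then 274.4, 281.1 and 282.6 FPKM (log2 difference -0.23, SE 0.05, adjusted p = 0.0478), a call kept in 8 fits. Of 25 NRF2 and antioxidant genes tested, 23 were lower (50.5% of all genes were), 2 passed, 12 lay wholly lower (8.01% of all genes did) and the median was -0.11. Hmox1 and Gclm belong to the class of 100 FPKM or more, in which 177 of 1097 genes lay wholly lower. The NRF2 list, too, was drawn up with earlier results of these libraries known.

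The wholly lower members spanned several branches of this defence. Thioredoxin reductase Txnrd1 read 266.4, 282.8 and 273.7 FPKM at 0 h and 237.8, 240.6 and 234.9 FPKM at 6 h (adjusted p = 0.1), and Pgd, of the pentose phosphate pathway, stood at 247.7 and 217.8 FPKM (adjusted p = 0.15). The ferritin genes Fth1 (4989 and 4462 FPKM, adjusted p = 0.321) and Ftl1 (10063 and 9191 FPKM, adjusted p = 0.47) store iron. Others were Srxn1 (log2 difference -0.19), Gsr (-0.22), Osgin1 (-0.33), Blvrb (-0.17), Prdx1 (-0.12) and Nfe2l2 (-0.10), which encodes NRF2 itself. Gclc, the catalytic partner of Gclm, overlapped between the time points (-0.07, adjusted p = 0.789), as did Nqo1 (-0.11, adjusted p = 0.699). Slc7a11, the cystine transporter, had a positive difference (0.14, adjusted p = 0.841). Mt1, a metal-binding metallothionein outside the list, fell from 277.2 ± 17.3 to 222.0 ± 13.1 FPKM (adjusted p = 0.041), with its neighbour and near relative Mt2 at 92.7 and 75.9 FPKM (adjusted p = 0.0963). The sum of the list was 21302 to 23078 FPKM at 0 h and 19733 to 20284 FPKM at 6 h, and most of it was ferritin.

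The core of the antioxidant response element, TGACNNNGC, was searched on both strands of the same 250-base windows, because NRF2 is known to bind it. It stood in 3338 of the 32851 RefSeq windows (10.2%), in 14.1% of the tested genes and in 6 of 21 genes of the NRF2 list (28.6%). Of the called genes, 2 of 25 falls (8.0%) and 2 of 19 rises (10.5%) held it. Among called genes of the interferon list it stood in 2 of 8 (25%). Gclm was the 1 called NRF2 gene with a window, so Hmox1 was not searched. Gclm held 1 match on the reverse strand, 134 bases before its start, at chr3:122245393-122245461 in GRCm38.p6 (plus strand), shown with the match in capitals.
Gclm: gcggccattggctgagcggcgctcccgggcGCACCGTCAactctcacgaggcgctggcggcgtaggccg

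The steepest falls lay outside this list. Ybx3, a cold-shock domain protein that binds nucleic acids, read 329.0, 384.2 and 203.2 FPKM at 0 h and 89.0, 97.0 and 158.1 FPKM at 6 h (2.66 times lower, log2 difference -1.40, SE 0.22, adjusted p = 0.0275). Ier5l, a relative of an immediate early gene, read 29.3, 30.7 and 14.4 FPKM and then 4.31, 5.50 and 11.1 FPKM (3.55 times lower, adjusted p = 0.0294). Lrp3, of the LDL receptor family, read 9.31, 11.6 and 6.03 FPKM and then 2.23, 2.64 and 4.98 FPKM (2.74 times lower, adjusted p = 0.0429). In all 3 the third replicate was the lowest of the 0 h group and the highest of the 6 h group. The same order was common among the falls: 28 of the 34 had their lowest 0 h value and 27 their highest 6 h value in replicate 3, where over all 10910 genes the numbers were 3770 and 3668.

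Smad4, the shared partner of the SMAD proteins of TGF-β and BMP signalling, read 37.0, 39.4 and 25.9 FPKM at 0 h and 13.1, 12.5 and 18.6 FPKM at 6 h (2.32 times lower, log2 difference -1.16, SE 0.16, adjusted p = 0.0191). It was the 1 of 27 TGF-β and BMP genes that passed, and the median of that list was 0.08. The BMP receptor gene Acvr1 stood at 11.8 and 7.29 FPKM (adjusted p = 0.1) and Bmpr1a at 17.3 and 20.4 FPKM (adjusted p = 0.442). Smad2, Smad3 and Smad5 had log2 differences of -0.08, 0.14 and -0.02. Ryk, a Wnt receptor with an inactive kinase domain, read 30.8, 40.8 and 24.4 FPKM and then 13.7, 14 and 20.3 FPKM (2 times lower, adjusted p = 0.0328), again the 1 of 22 Wnt genes that passed. Axin1, the scaffold of the β-catenin destruction complex, read 31.9, 30.4 and 30.9 FPKM and then 17.6, 16.4 and 25 FPKM (1.58 times lower, adjusted p = 0.041).

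Akt1, the growth factor-activated kinase, read 173.7, 167.6 and 133.2 FPKM at 0 h and 81.4, 84.6 and 113.1 FPKM at 6 h (1.7 times lower, log2 difference -0.77, SE 0.12, adjusted p = 0.0275). Pik3ca, a catalytic subunit of the lipid kinase upstream of it, stood at 4.18 and 2.34 FPKM (adjusted p = 0.124), and of 21 genes of this pathway 1 passed with a list median of -0.001. Gna12, a G protein α subunit, read 45.9, 46.4 and 33.7 FPKM and then 16, 19 and 26.6 FPKM (2.04 times lower, adjusted p = 0.0275), while its relative Gna13 stood at 22.9 and 25.6 FPKM (adjusted p = 0.583). Ppp2cb, which encodes 1 of the catalytic subunits of the phosphatase PP2A, read 33.3, 47.2 and 23.3 FPKM and then 12.5, 13.2 and 20.2 FPKM (2.26 times lower, adjusted p = 0.041). The other catalytic subunit, Ppp2ca, was more abundant at 278.6 and 257.7 FPKM (adjusted p = 0.486). Each of Akt1, Gna12 and Ppp2cb was thus a single called member within its list.

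Further called falls are given with what each gene is known for, and no grouping of them was tested. They included Rab21, an endosomal GTPase (27.3, 32.1 and 22.7 FPKM and then 13.3, 15.5 and 19.5 FPKM, adjusted p = 0.0408), Git1, a regulator of Arf GTPases (8.57 ± 1.54 to 4.78 ± 0.218 FPKM), Reps1, of endocytosis (98.6 ± 4.32 to 74.0 ± 7.47 FPKM), and Osbp, which moves cholesterol and oxysterols between membranes (7.13, 9.66 and 5.52 FPKM and then 3.50, 3.04 and 3.83 FPKM, adjusted p = 0.041). Also lower were Phc2, of Polycomb (129.3 ± 8.94 to 90.9 ± 6.37 FPKM, adjusted p = 0.0191), Setd8, a histone lysine methyltransferase (46.7 ± 7.18 to 29.1 ± 4.14 FPKM), Carm1, an arginine methyltransferase (52.2 ± 2.15 to 39.2 ± 2.72 FPKM), and Cdk2ap1 (141.6 ± 19.8 to 91.0 ± 11.1 FPKM). Larp1, which binds messengers of the translation machinery, read 40.8, 41.4 and 31.5 FPKM and then 21.6, 21.7 and 27.4 FPKM (adjusted p = 0.0319). Rcc2, listed with ribosome biogenesis and MYC targets and known for its role in mitosis and cell spreading, read 68.8, 63.6 and 47.7 FPKM and then 30.04, 32.3 and 41.8 FPKM (adjusted p = 0.0319).

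The remaining called falls were Sepn1, a selenoprotein of the endoplasmic reticulum (34.5 ± 6.48 to 18.5 ± 4.75 FPKM), Crls1, the cardiolipin synthase of mitochondria (33.4 ± 3.60 to 22.3 ± 2.73 FPKM), Dpy19l1, a sugar transferase (18.2 ± 1.64 to 11.0 ± 0.813 FPKM), and Abhd17c, which removes palmitate from proteins (47.6 ± 1.18 to 34.1 ± 5.05 FPKM). Marveld1, Shisa4, Dmwd and Crip2 had log2 differences of -0.81, -0.67, -0.67 and -0.26. Arhgap9, a GTPase-activating protein at 3.52 and 1.39 FPKM, overlaps exons of Gli1 on the other strand, and the library kit keeps no strand, so reads of the 2 genes cannot be told apart. Such an overlap with an antisense exon was present in 14 of the 60 called genes and in 31.9% of all genes tested. Irf7, Gna12, Lrp3, Carm1 and Penk were among the 14, so the same limit holds for their values. Outside protein-coding genes, 3 were called. The pseudogene Apoo-ps read 4.99, 2.08 and 4.57 FPKM at 0 h and 0.0112, 0 and 0 FPKM at 6 h (adjusted p = 0.00463). It passed the filter on level only through its 0 h values, with means of 3.88 FPKM at 0 h and 0.00372 FPKM at 6 h. Its parent Apoo, picked after its values were known, stood at 56.2 and 52.9 FPKM (adjusted p = 0.83). The pseudogene Gm10052 went from 226.7 ± 4.97 to 183.1 ± 6.05 FPKM and the antisense RNA 2900060B14Rik from 8.67 ± 1.02 to 4.80 ± 0.130 FPKM. For both pseudogenes the division of reads with near-identical copies is uncertain.

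**Figure D4:**
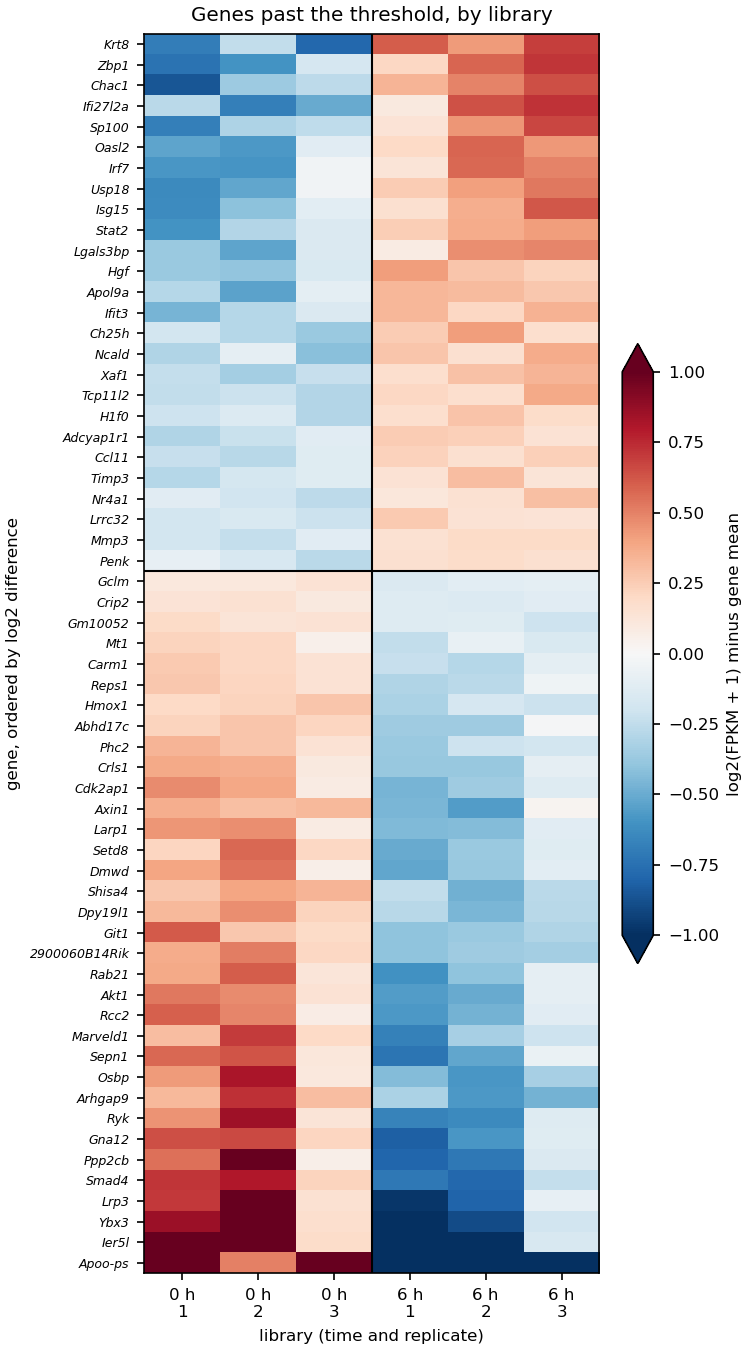
Deviation of log2(FPKM + 1) from the gene's mean over 6 libraries (colour, limited to -1 and 1) for the 26 genes higher and 34 lower at 6 h (rows, ordered by difference) in each library (columns). Replicate 3 of both time points is paler than replicates 1 and 2 over most of the falls.

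Library by library, the median deviation over the 34 falls was 0.38, 0.48 and 0.15 at 0 h and -0.45, -0.42 and -0.13 at 6 h. Over the 26 rises it was -0.30, -0.29 and -0.16 and then 0.21, 0.31 and 0.36. Replicate 3 of 0 h therefore lay nearest to the other time point in both directions, and replicate 3 of 6 h did so only over the falls. All 60 genes kept the sign of their difference in each of 19 alternative fits in which they were tested. Because their groups did not overlap, leaving out a library or changing the pseudocount, filter or variance model could not turn that sign. The kept sign is therefore no sign of robustness in those fits.

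A GC-rich start of the transcript was more frequent among the called falls than over all genes tested, a feature that had no part in choosing them and was picked after the calls were known. The first 500 bases of their longest annotated transcript had a median GC content of 67.9% (quartiles 59.0% and 72.0%), against 58.0% over all tested genes and 56.1% in the called rises. At least 65% GC was reached by 22 of 34 falls (64.7%), 4 of 26 rises (15.4%) and 2198 of the tested genes (20.2%). Over the whole transcript the medians were closer, at 54.0%, 51.0% and 49.7% for falls, rises and all tested genes. Lrp3 (81.8%), Larp1 (80.2%), Dmwd (78.4%), Gclm (75.8%) and Ybx3 (75.2%) lay at the top, and Reps1 (40.8%), Apoo-ps (44.8%) and 2900060B14Rik (45.0%) at the bottom of the falls. Across 6291 genes, each library's deviation from the gene means had a Spearman correlation with this GC content between -0.038 and 0.076, as a description over genes that share a library. With whole-transcript GC content the same correlation was 0.31 in replicate 1 and -0.21 in replicate 3 of 0 h and between -0.17 and -0.03 at 6 h. After each library was corrected for GC content and length, an alternative chosen after seeing the data, 58 of the 60 calls remained, with 37 genes higher and 39 lower. Because GC content of the first 500 bases had correlations so near 0, correcting for it could move values little. The kept calls therefore do not bear on that feature, and its part in the falls was not tested.

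**Figure D5:**
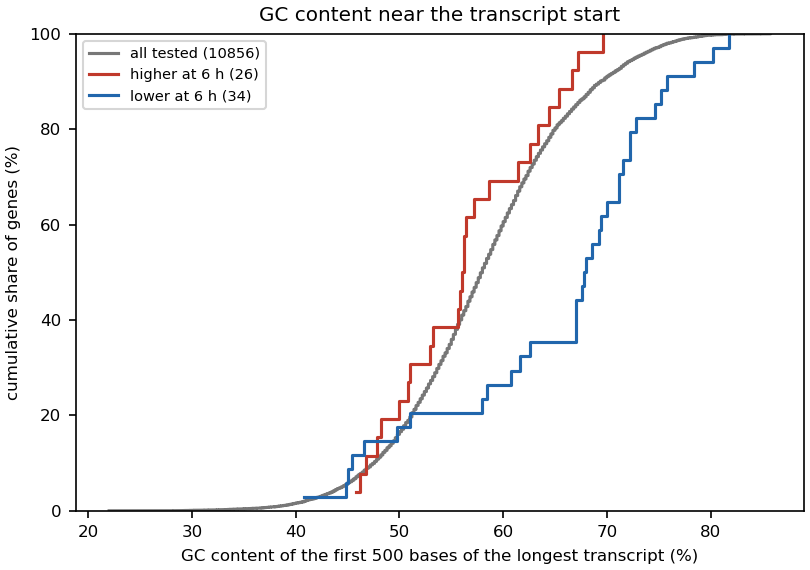
Cumulative share of genes (vertical, %) against the GC content of the first 500 bases of the longest annotated transcript (horizontal, %) for all tested genes with an annotated transcript (grey), the 26 genes higher (red) and the 34 genes lower (blue) at 6 h. The blue curve lies to the right of the grey one over its upper part, with a median of 67.9% against 58.0%.

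Of 25 immediate early genes, Nr4a1 passed as higher and Ier5l as lower, with a median of 0.01, and Myc stood at 261.0 and 282.8 FPKM (adjusted p = 0.511). In limma 0 genes passed among 18 of the circadian clock (1 at an unadjusted p under 0.05), 17 YAP and SRF targets (3), 16 heat shock proteins (2) and 18 genes of the unfolded protein response (2). The same held for 24 genes of cholesterol synthesis and uptake (1), 17 of autophagy and lysosomes (0), 12 of prostaglandin synthesis and response (3), 10 of polyamine metabolism (4) and 9 of complement (3). Among hypoxia and glycolysis genes 15 of 23 were lower (50.5% of all genes were), 5 of them wholly (8.01% of all genes were), and 0 passed (3 unadjusted), with Aldoa at 1012 and 928.1 FPKM (adjusted p = 0.393). Cell cycle and DNA replication genes were lower in 16 of 21 cases, 5 of them wholly, beside the same 50.5% and 8.01% over all genes, with a median of -0.09 and 0 passing (3 unadjusted). Mcm2, a subunit of the replicative helicase, stood at 41.1 and 35.9 FPKM (adjusted p = 0.347). Markers of Foxl1-positive subepithelial mesenchyme were higher in 10 of 11 tested genes (49.5% of all genes were), 4 of them wholly (7.25% of all genes were), with a median of 0.17 and 0 passing (5 unadjusted). Foxl1 itself was too low to be tested. Those of PDGFRA-low fibroblasts were higher in 6 of 9, beside 49.5% of all genes, with a median of 0.17 and 0 passing (3 unadjusted). The tissue factor gene F3 read 393.0, 416.5 and 428.9 FPKM at 0 h and 468.9, 479.6 and 523.4 FPKM at 6 h (adjusted p = 0.0877). Over all genes tested, 1023 had an unadjusted p under 0.05, 485 of them higher and 538 lower.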

How the data were processed

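RNA was purified with a micro-scale column kit, copied to full-length cDNA with SMART-Seq HT and made into Nextera XT libraries, per the labels' protocols. The authors deposited 1 table of FPKM values per library, per the file headers. Cuffdiff 2.2.1, SAMtools 0.1.18, TopHat2 2.1.1 and Bowtie2 2.2.8 appear in the submitters' processing notes beside the build mm10, without a stated role. How genes were annotated, multi-mapping reads assigned and libraries scaled is not given in the sources consulted. FPKM keeps no read numbers, so depth is unknown.

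Groups came from the labels. The moderated test of limma 3.58.1 (R 4.3.3), with the prior variance following expression level, was run on log2(FPKM + 1) of genes averaging 1 FPKM or more, and p-values were Benjamini-Hochberg adjusted over all 10910 genes. The threshold was 0.05. Log2 differences are on the log2(FPKM + 1) scale, which understates changes of low genes, and fold values are ratios of mean FPKM. The fit was also run on simulated data with planted changes larger than most of the called differences, so that run does not bear on the smaller ones. Coordinates, transcript length and GC content came from GENCODE on GRCm38, and promoters from RefSeq on GRCm38.p6.

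The members and the 42 gene lists (32 pathways, 10 cell type marker sets, 756 of 757 members listed) were chosen with earlier results of these data known, so lists are described by counts and medians without a test. Named were all genes past the threshold (library values for the 15 largest rises and falls with a group mean of at least 5 FPKM, and for further genes the text turns on), up to 4 members of each list with the smallest p, the 10 most abundant genes, gate genes, genes nearest the thresholds, and the 5 largest differences in each direction that missed; interferon and NRF2 members beyond these were chosen after their values were seen. Alternatives were other pseudocounts (0.1 and 10), filters, scalings, variance settings, a replicate block, leaving out each library and, added after seeing the data, a GC and length correction and leaving out 39 small RNA genes. Over all genes, same-numbered libraries did not deviate together (Pearson correlations of -0.044, 0.013 and -0.028), and the main fit took the numbers as names only. These correlations cannot exclude pairing, because a shared source that moved few genes would not show in them.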

Additional observations from a re-analysis of the deposited data

How the results depend on the processing

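Counts of genes past the threshold depended on how the variance was modelled. Without the intensity trend limma called 0 higher and 0 lower genes (960 at an unadjusted p under 0.05, smallest adjusted p 0.223), and with no filter on level also 0 and 0 (1322 unadjusted, smallest adjusted p 0.244). The cause was not tested. Array quality weights gave 50 higher and 59 lower. A replicate block, fitted although no source says whether the numbers pair the libraries, gave 14 higher and 9 lower. Leaving out 1 library at a time gave 0 to 47 higher and 2 to 68 lower genes. The counts were within 1.5 times of the reported ones with a pseudocount of 0.1 (27 and 38) or 10 (26 and 26), a filter at 10 FPKM (38 and 37), a common total for every library (32 and 34), median ratio scaling (26 and 34), quantile normalisation (26 and 28), a robust prior (32 and 26), the GC and length correction (37 and 39) and without 39 small RNA genes (39 and 43). With the filter at 10 FPKM, 466 genes lay wholly higher at 6 h. Of 1127 pairs of a called gene and an alternative, 0 reversed, 669 stayed past the threshold and 458 did not. For most alternatives a reversal was not possible, because the groups of the called genes did not overlap. Of 635 pairs of a list and an alternative, 10 medians moved by more than the replicate spread, among them the interferon median, 0.23 with a pseudocount of 10. Read depth is unknown, and under 10 FPKM the smallest called log2 difference was 0.62.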

Other observations

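Several large differences missed the threshold. Slpi, a secreted inhibitor of leukocyte proteases, read 7.38, 14.9 and 0.224 FPKM at 0 h and 47.7, 35.4 and 48.0 FPKM at 6 h (log2 difference 3.02, limma adjusted p = 0.0686), wholly higher with a wide spread at 0 h. Wtip, a LIM domain protein, read 28.6, 31.0 and 19.0 FPKM and then 10.6, 9.31 and 17.7 FPKM (-1.03, adjusted p = 0.0529), in the replicate order seen in most called falls. The small RNA host gene Snhg9 stood at 14.5 and 6.61 FPKM (adjusted p = 0.0963). Mir5098, Snord104, Mir1954 and Snord83b among the rises and Mir6240, Snora30 and Mir7688 among the falls were each listed at 0 in 2 to 5 of the 6 libraries. Mir7688 was listed at 180.2 FPKM in replicate 1 of 0 h and at 0 elsewhere. With Mir703, the 5 genes of at least 10 FPKM with the widest spread within groups were all such small RNA genes.

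The most abundant genes were Ftl1, Fth1, Actg1, Ppia, Ifitm3, Lgals1, Rps2, Hspa8, Cd63 and Anxa2, and of these Ifitm3 had the lowest adjusted p. Krt18, the partner of Krt8 in simple epithelia, missed the filter at 0.806, 0.355 and 0.252 FPKM at 0 h and 0.977, 0.995 and 2.15 FPKM at 6 h. Acvr1 (-0.61, adjusted p = 0.1) and Pik3ca (-0.63, adjusted p = 0.124) had the next lowest values of their lists after Smad4 and Akt1, and in both the groups did not overlap.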
